A study of Argopecten irradians with 2 samples.

Results

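The collagens and extracellular matrix proteins of the bay scallop gill were examined in 2 RNA-seq libraries. The members were chosen by name: every unigene (an assembled transcript) whose best Swiss-Prot match carried a collagen alpha, laminin, fibrillin, matrilin, thrombospondin, cartilage, nidogen, fibronectin, SPARC, perlecan, papilin, hemicentin, prolyl 4-hydroxylase or lysyl oxidase entry, and which had at least 10 reads in both libraries together. Of 60308 unigenes listed, 198 matched these words, 0 were removed as collagen VIII or X chains, 42 had fewer than 10 reads, and 156 remained as members. The choice used names and total reads, and not the difference between the libraries. Just outside the read minimum stood Unigene42445, a hemicentin-1 match with 1 read in the control and 8 in the exposed library, and just inside stood Unigene33105, a hemicentin-2 match with 2 and 8 reads.

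Bay scallops (*Argopecten irradians*) of no stated genotype or strain were held for 48 h either with 80 mg/L palmitoleic acid, a fatty acid that kills bloom-forming algae, dissolved in dimethyl sulphoxide (PA), or with the same volume of the solvent alone (CN). Both groups thus received the solvent, and the age of the animals is not stated in the sources used here. Per the labels each library pooled gills of 18 scallops, while the study's methods describe 3 pools of 6 animals. Each condition is 1 library, so no difference below has a replicate check, and the test used compares the libraries and not the conditions. The reads assigned to unigenes summed to 10305482 in CN and 10414545 in PA.

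The extracellular matrix is the protein scaffold on which the cells of the gill filament sit. Fibrillar collagens form the tensile fibres. Network collagens, laminins and nidogens form the basement membrane under the epithelium, and FACIT and beaded-filament collagens decorate or link the fibres. Prolyl 4-hydroxylases stabilise the collagen helix inside the cell, lysyl oxidases cross-link it outside, and ADAMTS proteases trim it. These roles are known mainly from vertebrates, and a scallop unigene carries the name only through sequence similarity.

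As a whole, the members took 0.854% of the assigned reads in CN and 1.44% in PA. Their summed FPKM (fragments per kilobase of transcript, scaled to library size) was 5604 in CN and 9768 in PA, a 1.74-fold difference. In FPKM, the whole of that gain lay in 4 short and abundant fibrillar collagen unigenes, without which the sum was 1727 in CN and 1616 in PA. In reads, the members without these 4 had 42168 in CN and 52450 in PA. That is a log2 ratio of 0.30 after scaling to library size, a scale on which all assigned reads together come out equal. In summed FPKM, all unigenes with at least 10 reads had a log2 ratio of -0.07. Scaling the libraries by TMM lowers every log2 ratio by 0.25. A unigene was called when the Audic-Claverie test on reads gave a false discovery rate (FDR) of at most 0.001 and the FPKM ratio was at least 2-fold. By that rule 48 members were called higher and 20 lower in PA. Of all 38391 unigenes with at least 10 reads, 24.0% were called, 13.3% as higher and 10.7% as lower, against 43.6% of the members. The calls depend on depth. Among unigenes with at least 50 reads, 35.4% were called, 19.9% as higher and 15.5% as lower, against 52.6% of the 116 members that deep. Among the unigenes with a Swiss-Prot name, the share called was 30.3%, with 17.7% higher and 12.6% lower. The members' median log2(PA/CN) was 0.70, whether or not the members with 0 reads in a library were set at their bound, and the median of all unigenes was 0.21.

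The dependence on counting error was small for the abundant members and large for the rare ones. The 95% Clopper-Pearson interval of the log2 ratio, which covers counting error only, lay above 0 for 75 members, below 0 for 38 and across 0 for 43. Reads were found in both libraries for 151 members, while 2 had none in CN, 3 had none in PA, and 9 had between 1 and 3 in 1 of the libraries. The next counts assume that replicate libraries of a group varied with a biological coefficient of variation of 0.4. Of all unigenes, 223 would then be called higher and 393 lower, or 1.6%. Of the members, 5 would be called higher and 2 lower. Those 7 are named where they appear below.

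**Figure D1:**
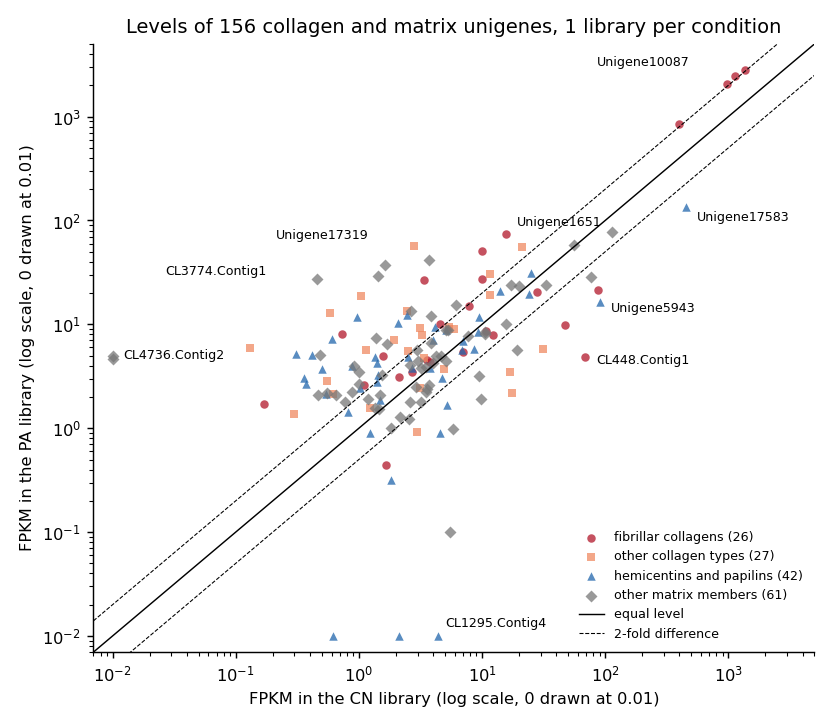
FPKM of the 156 members in CN (x axis) and in PA (y axis), both on log scales with 0 drawn at 0.01, with fibrillar collagens, other collagen types, hemicentins with papilins and the remaining members in separate symbols. The solid line marks equal levels and the dashed lines a 2-fold difference. The 4 short fibrillar collagen unigenes stand apart at the top right, just above the upper 2-fold line, and the papilin Unigene17583 lies below the lower one.

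The names were checked against the other annotations in the files. Of the 53 members with a collagen name in Swiss-Prot, 37 also had a collagen as best match in the Nr protein database. Interpro named a collagen domain in 15 of them, a von Willebrand factor A domain in 12, an LDL-receptor class A domain in 6 and another domain in 3, gave an entry without a name for 11 and had no entry for 6. The best Nr match came from a mollusc for 112 of the 156 members, 80 of them from oysters of the genus *Crassostrea*, and from the bay scallop itself for 0. One member, Unigene7022, matched a collagen XI chain in Swiss-Prot but a *Plasmodium* surface protein in Nr. Contigs of 1 assembly cluster share sequence, and 51 members had read numbers that were not whole, as arises when a read is divided among similar contigs. The members fell into 130 clusters and single unigenes, so they are not 156 independent genes.

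The largest group in level was the fibrillar collagens. It held 26 unigenes with a summed FPKM of 4207 in CN and 8468 in PA, 2.01-fold higher. Of these, 11 were called higher and 3 lower, with a median log2 ratio of 0.99. All 3 that fell belonged to a single family of contigs described below. Without that family, 0 fibrillar unigenes were called lower.

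The 4 most abundant fibrillar unigenes were short, with a median length of 1194 bases, and their best Swiss-Prot matches were vertebrate collagens I, III and V. In Nr, Unigene10087 matched collagen alpha-1(I) and Unigene5895 oyster collagen alpha-5(VI). Unigene20742 matched collagen alpha-1(XI) there and Unigene20844 an insect collagen alpha chain, so the type numbers are uncertain. Unigene10087, matched to collagen alpha-1(I), had 16698 reads in CN and 34706 in PA, or 1370 and 2820 FPKM. It ranked 94th of all unigenes by FPKM in CN and 23rd in PA. Unigene5895, matched to collagen alpha-1(V), had 1140 FPKM in CN and 2444 in PA. Unigene20742, matched to collagen alpha-1(III), had 966 FPKM in CN and 2045 in PA, and Unigene20844, a second alpha-1(I) match, had 401 and 843 FPKM. All 4 were higher in PA by nearly the same factor, from 2.06-fold to 2.14-fold. Their read numbers in PA were not whole, as arises when reads are divided among similar contigs. The 4 may therefore not be independent observations. Together they held 52.1% of the members' reads in CN and 65.0% in PA. The factor is close to the 2-fold threshold. With the libraries scaled by TMM, which lowers every log2 ratio by 0.25, all 4 fell below the limit, Unigene10087 with a log2 ratio of 0.80 and Unigene5895 with one of 0.86. With Unigene4752 below, 5 of the 11 fibrillar calls were lost under TMM and 6 were kept.

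Of the long fibrillar unigenes whose Swiss-Prot match had an E-value of 0, Unigene1651, Unigene10233 and Unigene12331 differed more than the 4 short ones. Unigene1651, 5360 bases long and closest to an abalone collagen pro-alpha chain, had 861 reads in CN and 4140 in PA, a 4.76-fold rise in FPKM with a log2 interval of 2.14 to 2.36. Unigene10233, a second abalone pro-alpha chain match, had 532 reads in CN and 2688 in PA, a log2 ratio of 2.32. The counting intervals of these 2 overlapped. Unigene12331, matched to collagen alpha-1(XI), a minor chain that in vertebrates sits in the core of the fibril, had 667 reads in CN and 1816 in PA, 2.69-fold higher. Unigene4752, also with an E-value of 0 and matched to collagen alpha-1(II), had 177 and 402 reads, 2.25-fold higher. Its log2 interval of 0.91 to 1.43 covered the ratios of the 4 short unigenes. Unigene11432, shorter at 1840 bases and matched to collagen alpha-1(III) at 1e-55, had 63 reads in CN and 495 in PA, 7.79-fold higher. Unigene2476, an alpha-1(III) match by Swiss-Prot at 4e-25 but a serine/arginine repetitive matrix protein by Nr, was not called. It had 650 reads in CN and 480 in PA.

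The 3 fibrillar unigenes that fell belonged to one family, which also held unigenes that rose. The 8 contigs of cluster CL448 and the single Unigene7050 matched collagen alpha-1(II) with the same E-value of 5e-66 where they were members, yet Interpro gave an LDL-receptor class A domain for 6 of the 7 members among them. CL448.Contig1 had 2785 reads in CN and 198 in PA. CL448.Contig8 had 1762 and 375 reads, and Unigene7050 had 3221 and 795. These 3 were called lower, by log2 ratios of -3.83, -2.25 and -2.03. In the same cluster CL448.Contig4 had 29.1 reads in CN and 323 in PA and CL448.Contig6 had 59.8 and 193 reads, both called higher, while CL448.Contig2 and CL448.Contig3 were not called. Contig1 and Contig8 thus carried 85.4% of the cluster's reads in CN and 34.0% in PA. The cluster as a whole had 5325 reads in CN and 1684 in PA, a log2 ratio of -1.68, so the rise of Contig4 and Contig6 turned into a fall when the contigs were summed. CL448.Contig5 and CL448.Contig7, which are no members, matched low-density lipoprotein receptor-related protein 1, an endocytic receptor, and had 7.65 and 0 reads in CN and 0 and 54.8 in PA.

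**Figure D2:**
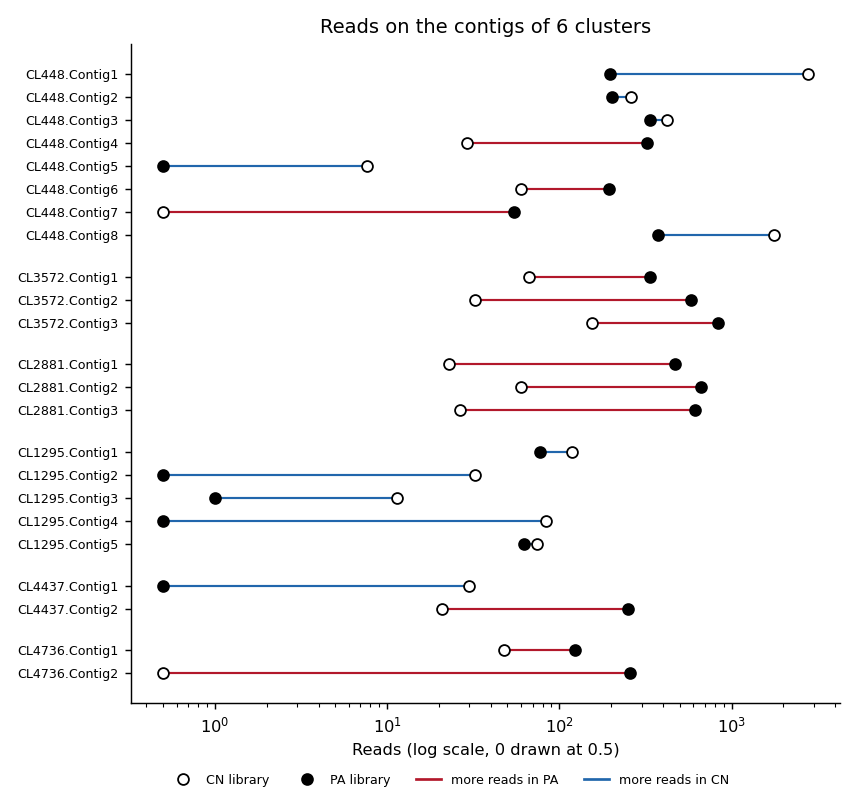
Reads on each contig of 6 assembly clusters on a log scale, with 0 drawn at 0.5, open circles for CN and filled circles for PA. In CL448 the contigs went in both directions, with 2785 reads in CN against 198 in PA on Contig1 and 29.1 against 323 on Contig4, and in CL4437 Contig1 lost its reads while Contig2 gained, whereas the 3 contigs each of CL3572 and CL2881 all had more reads in PA.

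The network collagens comprised 5 unigenes of 4 clusters or singletons, each with a positive log2 ratio, from 0.61 to 1.41, and 1 of them was called. The weakest match was CL1956.Contig2, with an E-value of 2e-07 and a pulmonary surfactant protein as best Nr match. Its cluster summed to 43 reads in CN and 54 in PA, a log2 ratio of 0.31 with an interval from -0.29 to 0.93. Unigene3822, a type IV chain, the main collagen of basement membranes, had 709 reads in CN and 1898 in PA, 2.65-fold higher. A second long type IV unigene, Unigene13233, closest to an abalone alpha 1 type IV chain, had 867 and 1442 reads, 1.65-fold higher and under the 2-fold limit. The log2 interval of the first, 1.28 to 1.53, did not reach that of the second, 0.60 to 0.84. The contigs of CL987, matched to type XV, a collagen found next to basement membranes in vertebrates, had 317 reads in CN and 509 in PA when summed, 1.59-fold higher. The summed FPKM of the group was 37.2 in CN and 73.7 in PA.

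The unigenes matched to the beaded-filament collagens of type VI, which are rich in A domains, moved in both directions. Of 9 unigenes, 3 were called higher and 2 lower. Interpro named a collagen domain in none of the 9. In Nr, Unigene17319 matched an uncharacterized protein and Unigene14502 oyster collagen XII, so the type is uncertain. Unigene17319, matched to alpha-6(VI), had 71 reads in CN and 1466 in PA, 20.5-fold higher with a log2 interval of 4.01 to 4.72. It is among the 7 that stay called at a coefficient of variation of 0.4. Unigene47395, matched to alpha-5(VI) but to fibropellin in Nr, had 10 reads in CN and 225 in PA, 22.2-fold higher. Against these, Unigene14502, matched to alpha-4(VI), had 590 reads in CN and 109 in PA and fell by a log2 ratio of 2.45. Its level in CN, 31.3 FPKM, was the highest of the group there, and in PA Unigene17319 with 56.9 FPKM took that place.

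The FACIT collagens, which bind to the surface of fibrils, had the highest median log2 ratio of the groups with more than 1 member, 1.67, with 6 of 12 called higher and 2 called lower. The 3 contigs of CL3572, matched to collagen alpha-1(IX), a cartilage fibril partner in vertebrates, had 253 reads in CN and 1755 in PA together, 6.86-fold higher. Each contig was called on its own, with log2 ratios from 2.31 to 4.16. Among the 9 unigenes matched to types XII, XIV and XXII, 3 were called higher and 2 lower. Unigene8847, a type XII match, had 75 reads in CN and 221 in PA, whereas Unigene5020, a type XXII match, had 137 and 17 reads and Unigene13453, a type XIV match, had 177 and 37. The last 2 fell by log2 ratios of 3.02 and 2.27. Unigene36583, a type XII match with 1 read in CN and 46 in PA, was called higher, but its log2 ratio of 5.50 had an interval from 2.96 to 10.84. Most of these 9 unigenes carry an A domain, and most match collagen VI or XII of oyster in Nr, so the type numbers are uncertain.

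CL3975.Contig2 was the only member of the remaining collagen types. It matched collagen alpha-1(XXIII), a membrane-anchored collagen in vertebrates, and an oyster collagen-like protein. It had 1045 reads in CN and 2746 in PA, 2.60-fold higher. Over all 53 collagen-named unigenes, 22 were called higher and 7 lower with a median log2 ratio of 1.07. Over the other 103 members the counts were 26 and 13, with a median of 0.50.

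**Figure D3:**
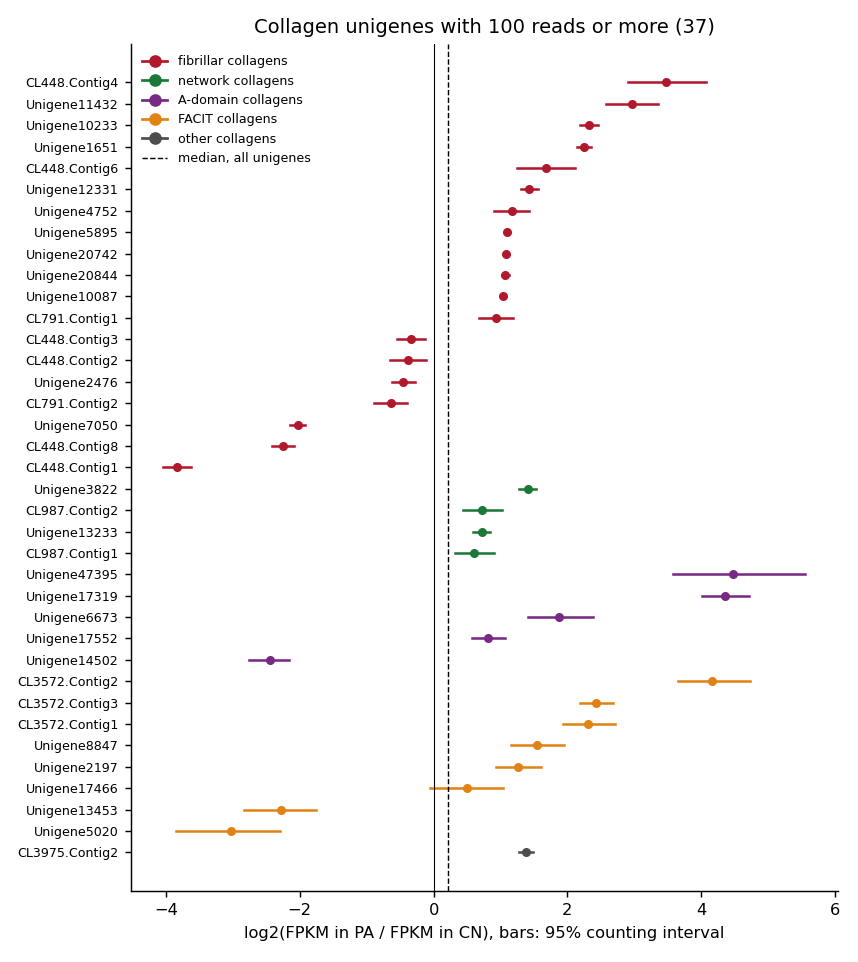
log2(PA/CN) of the 37 collagen-named unigenes with at least 100 reads, grouped by collagen type, with bars for the 95% counting interval and a dashed line at the median of all unigenes, 0.21. The interval lay above 0 for 26, below 0 for 10 and across 0 for 1, and the members of CL448 with Unigene7050 make up most of the low fibrillar points.

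In the laminin and nidogen group, 4 of 16 unigenes were called higher and 1 lower, and none of these was a laminin. The 5 Sushi, nidogen and EGF-like matches described below held 3 of the higher calls and the 1 lower call. Without them 1 of 11 unigenes was called, 9.1% against the 24.0% of all unigenes. Of 7 laminin unigenes, the trimeric adhesion proteins of the basement membrane, 0 were called by the Audic-Claverie rule, with log2 ratios from -0.62 to 0.80. The long gamma-1 contigs of CL1129 had 529 reads in CN and 907 in PA together, 1.70-fold higher, and the beta-2 match Unigene4729 had 280 and 491 reads, 1.74-fold higher. Both ratios exceeded 1 beyond their counting intervals. The alpha match Unigene5819 had 770 reads in CN and 807 in PA, a log2 ratio of 0.05. Nidogens, which link laminin to collagen IV, were rare: 4 unigenes had a summed FPKM of 5.42 in CN and 12.2 in PA, and 1 was called, the nidogen-2 match Unigene4030 with 7 reads in CN and 31 in PA, a call that was lost under TMM scaling.

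The strongest pair of opposite changes in this group was among the Sushi, nidogen and EGF-like matches. SNED1 is a secreted matrix protein of vertebrates whose role is little known. Unigene12852, which matched it in both databases, had 2808 reads in CN and 1060 in PA and fell by a log2 ratio of 1.42. The 3 contigs of CL2881 had 109 reads in CN and 1752 in PA, 15.9-fold higher, with log2 ratios from 3.47 to 4.52 on single contigs. Their E-values of 7e-16 to 2e-16 were weaker than that of Unigene12852, 2e-70, and in Nr they matched oyster SRPX2, another secreted Sushi-domain protein. CL2881.Contig3 is the only contig of this cluster that stays called at a coefficient of variation of 0.4.

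Hemicentins and papilins formed the most numerous group, with 42 unigenes. Hemicentins are very long immunoglobulin-domain proteins that fasten tissue layers to each other in worms and fish, and papilins are basement membrane proteins related to ADAMTS proteases. In PA, 12 were called higher and 7 lower, and the median log2 ratio was 0.68. The summed FPKM went the other way, from 714 in CN to 395 in PA, and 2 abundant unigenes lost more FPKM than that. With the reads of whole clusters summed the difference was smaller, a log2 ratio of -0.23 against -0.85 in FPKM. Unigene17583, a papilin match with a Kunitz domain and an E-value of 3e-09, had 3908 reads in CN and 1177 in PA, or 453 and 135 FPKM. Unigene5943, a hemicentin-1 match in both databases with thrombospondin type 1 repeats, had 2350 and 431 reads, or 91.1 and 16.6 FPKM. They fell by log2 ratios of 1.74 and 2.46. The second papilin by reads, Unigene5081, is 7262 bases long and matched fly papilin at an E-value of 1e-180, and it was not called, with 708 reads in CN and 879 in PA.

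Among the hemicentins that rose, CL3952, whose 2 contigs reach 8607 bases, had 307 reads in CN and 1543 in PA, 4.97-fold higher. Unigene42170 had 18 and 305 reads, 16.9-fold higher. Unigene30, the hemicentin with an E-value of 0, had 62 reads in CN and 222 in PA, 3.54-fold higher. The contigs of CL1295 had 320 reads in CN and 140 in PA when summed. Within it, CL1295.Contig4 had 84.0 reads in CN and 0 in PA, which is at least 28.3-fold lower when 0 is taken as up to 3 reads, and which stays called at a coefficient of variation of 0.4. CL1295.Contig2 had 32.5 and 0 reads, at least 10.9-fold lower. In CL4437 the contigs went apart, with 29.7 reads in CN and 0 in PA on Contig1 and 20.9 and 251 on Contig2. CL448 and CL4437 were the 2 clusters whose member contigs were called in opposite directions.

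The hemicentin name covers more than 1 kind of protein. Of the 34 hemicentin unigenes, 12 had oyster titin as best Nr match, and of these 2 were called higher and 2 lower, with a median log2 ratio of -0.20. The 11 with a hemicentin as best Nr match had 5 called higher and 2 lower, with a median of 0.99. Contigs of a cluster count separately here, and the titin set spans 8 clusters or single unigenes and the hemicentin set 10. Both lower calls of the titin set are contigs of CL1295. CL3952 stands on both sides, with Contig1 in the titin set and Contig2 in the hemicentin set. Both titin and hemicentin are chains of immunoglobulin domains, and the files do not settle which of them a unigene encodes.

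**Figure D4:**
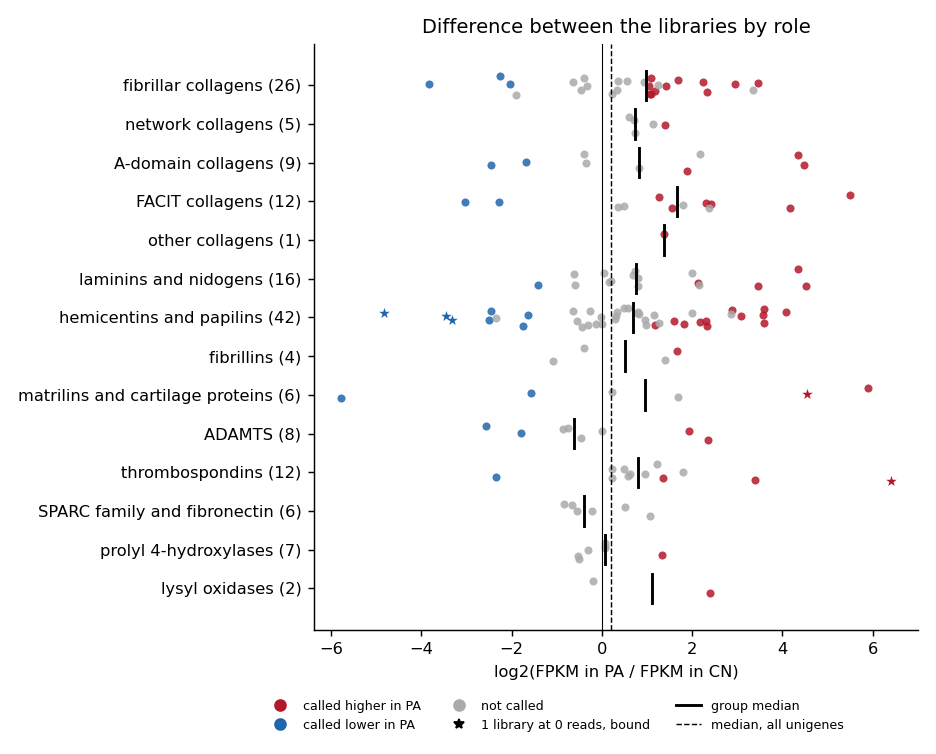
log2(PA/CN) of each member by role, red where called higher in PA, blue where called lower and grey where not called, with a black bar for the median of each group and stars for members with 0 reads in a library, drawn at their bound. The dashed line is the median of all unigenes, 0.21. FACIT collagens had the highest median among groups of more than 1 member, 1.67, and ADAMTS the lowest, -0.60.

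The cartilage protein group, whose names come from vertebrate cartilage that a scallop does not have, held some of the largest differences. CL3774.Contig1 is 5950 bases long and matched cartilage intermediate layer protein 1, a secreted protein with a thrombospondin type 1 repeat, at an E-value of 5e-102. It had 28 reads in CN and 1691 in PA, 59.6-fold higher with a log2 interval of 5.36 to 6.50. A second match to the same protein, CL4469.Contig2, had 0 reads in CN and 71 in PA, at least 23.4-fold higher. In contrast, Unigene28214, matched to cartilage matrix protein (matrilin-1), an A-domain adaptor, had 105 reads in CN and 2 in PA, a log2 ratio of -5.77 with an interval from -8.79 to -3.84. Unigene14520, with the same name, had 140 and 48 reads and fell by 1.56 on the log2 scale, while Unigene13229 had 88 and 104 reads and was not called. The first 3 of these 5 stay called at a coefficient of variation of 0.4.

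Thrombospondins, calcium-binding matrix glycoproteins, were higher in PA where they differed. All 7 unigenes matched to thrombospondin-1, -2 or -4 had a positive log2 ratio, and 3 were called. CL4736.Contig2, a thrombospondin-4 match at 3e-167, had 0 reads in CN and 257 in PA, at least 84.8-fold higher, and its partner CL4736.Contig1 had 48 and 124 reads, 2.55-fold higher. Contig2 also stays called at a coefficient of variation of 0.4. Summed over both contigs, the cluster had 48 reads in CN and 381 in PA, 7.85-fold higher. The 5 unigenes named only for a thrombospondin type 1 domain had 0 called higher and 1 lower, Unigene10510, with 111 reads in CN and 22.1 in PA.

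Fibrillins, the core of elastic microfibrils, had 1 call among 4 unigenes. CL2928.Contig1, 9340 bases long, had 369 reads in CN and 1178 in PA, 3.16-fold higher, while CL2928.Contig2, 8967 bases long, had 983 and 759 reads. The sum of both was 1352 and 1937 reads, 1.42-fold higher and below the limit, so the call rests on how reads were split between the contigs.

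The enzymes that build or cut the matrix did not move as a block. Of 7 prolyl 4-hydroxylase unigenes 1 was called, Unigene1694, matched to the alpha-2 subunit, with 116 reads in CN and 296 in PA, 2.53-fold higher. The unigene with the closest match to the alpha-1 subunit, CL2658.Contig2, had 82.1 and 87.0 reads. The group median of 0.07 was below that of all unigenes, 0.21, and was -0.18 with TMM scaling and -0.15 with scaling by the median of ratios. Of 2 lysyl oxidase homologs, Unigene19345 had 61 reads in CN and 328 in PA, 5.30-fold higher, whereas Unigene12918, which matched neurotrypsin in Nr, had 595 and 524 reads and was not called.

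ADAMTS proteases had the lowest group median, -0.60, with 2 of 8 called higher and 2 lower. Unigene8606, a 10564-base unigene matched to ADAMTS2, which in mammals removes the N-terminal propeptide of fibrillar collagen, had 287 reads in CN and 1492 in PA, 5.14-fold higher. Its E-value of 2e-11 was weak for its length. Unigene17922, matched to ADAMTS9, had 117 and 20 reads and fell by 2.56 on the log2 scale, and Unigene1718 had 394 and 116 reads and fell by 1.78. The direction for the group depends on the measure, since its summed FPKM was 74.0 in CN and 60.6 in PA while its summed reads gave a log2 ratio of 0.62. A further 14 ADAMTS unigenes had fewer than 10 reads and are not members.

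In the SPARC and fibronectin group 0 of 6 unigenes were called by the Audic-Claverie rule. Unigene10012, matched to worm SPARC, a collagen-binding calcium protein, was the most abundant with 1482 reads in CN and 1018 in PA, or 113 and 77.1 FPKM. Its log2 ratio of -0.56 had an interval from -0.67 to -0.44, below 0 but short of the 2-fold limit.

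Members with the closest database matches were compared with the rest. Of the 21 members with a Swiss-Prot E-value of at most 1e-100, 12 were called higher and 0 lower, 20 had a positive log2 ratio and the median was 1.35. Of the other 135, 36 were called higher and 20 lower with a median of 0.50. The first set is also deeper and longer, with a median of 836 against 154 reads and 5735 against 1584 bases. Their part in the contrast was not tested.

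The wider matrix machinery, chosen by words in the Swiss-Prot name and without the members, showed no common direction. Beside these lists stand the 24.0% called of all unigenes, 13.3% as higher and 10.7% as lower. For collagen folding and processing, 7 of 22 unigenes were called higher and 2 lower (40.9%) with a median log2 ratio of 0.13. All but 1 of the 7 were protein disulfide-isomerases, which fold secreted proteins in general. CL2756.Contig1, matched to the A6 form, had 36.2 reads in CN and 250 in PA, and Unigene13219, matched to the A4 form, had 109 and 428 reads. The abundant protein disulfide-isomerase Unigene10305, whose protein is also the beta subunit of prolyl 4-hydroxylase in vertebrates, had 3391 and 6608 reads, a log2 ratio of 0.95 just short of the limit.

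Of 24 matrix receptor unigenes 1 was called higher and 4 lower, 20.8% against the 24.0% of all unigenes, and the median log2 ratio was -0.26. The contigs of CL4054, matched to integrin beta-1, the common subunit of collagen and laminin receptors in vertebrates, made up 3 of the 4 falls, with 941, 385 and 221 reads in CN against 263, 88.7 and 5.53 in PA. The other was an integrin alpha-4 match, CL4935.Contig2, with 574 reads in CN and 256 in PA. For proteoglycans and their synthesis, 9 of 31 unigenes were called higher and 3 lower (38.7%), with a median of 0.62. Of the 9, 5 matched perlecan, the heparan sulfate proteoglycan of basement membranes, which Swiss-Prot lists under its longer name so that the word perlecan chose no member, among them Unigene17251 with 411 reads in CN and 1371 in PA.

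Matrix metalloproteinases and their inhibitors gave the lowest median of these lists, -0.59, with 2 of 13 called higher and 5 lower (53.8%). The 13 come from only 7 clusters or single unigenes, and contigs count separately here. Their summed FPKM was 924 in CN and 200 in PA. Unigene11262, matched to matrix metalloproteinase-19, had 20779 reads in CN and 2107 in PA, and Unigene19377, matched to metalloproteinase inhibitor 2, had 5328 and 300 reads. On the log2 scale the enzyme fell by 3.32 and the inhibitor fell by 4.17, while a second inhibitor, CL1198, had both its contigs called higher. Among other matrix proteins, 5 of 29 were called higher and 7 lower (41.4%) with a median of -0.20. Tenascins, adhesion-modulating glycoproteins, were called in both directions, and 3 usherin and 2 fibulin-2 unigenes fell.

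Markers of the cells in the gill were also compared, beside the 24.0% called of all unigenes, 13.3% as higher. Of 102 unigenes for cilia, the hallmark of the gill epithelium, 24 were called higher and 2 lower. That is 25.5% called, near the share of all unigenes, with 23.5% called higher. The median log2 ratio for cilia was 1.18 and the summed FPKM was 695 in CN and 1261 in PA. Of 164 such unigenes listed, 25 were at 0 in CN and 3 in PA. Among the 102 with at least 10 reads, only 1 was at 0 in CN and 0 in PA. Summed levels of tektins were 119 FPKM in CN and 311 in PA. For muscle, 17 of 74 were called higher and 12 lower (39.2%), with 1582 FPKM in CN and 1514 in PA. For mucins the counts were 18 and 14 of 84 (38.1%), with 1152 and 984 FPKM. For haemocyte and phagocyte words they were 6 and 5 of 22 (50%), with 205 and 215 FPKM. Over all unigenes listed, integrin beta summed to 91.55 FPKM in CN and 52.2 in PA. Macrophage-expressed gene 1 went the other way, with 93.9 and 119 FPKM, as did macrophage mannose receptor with 16.5 and 27.4 and hemocyte with 4.49 and 16.6. The lysozyme word of this list matched 0 unigenes. This list shares the integrin beta unigenes with the receptors above. Of 280 unigenes with a protist, alga or plant as best Nr match, 33 were called higher and 59 lower (32.9%). Their summed FPKM was 2134 in CN and 2819 in PA. The cilia and muscle words were all found in PA, and in CN only twitchin was listed at 0. In such bulk tissue, fewer cells of a type and less RNA per cell cannot be told apart, and the part of these markers in the matrix results was not tested.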

How the data were processed

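RNA-seq was measured in gills of 2 pools of bay scallops, CN and PA. Per the study's methods, the authors filtered reads with SOAPnuke, assembled them with Trinity, merged contigs with TGICL, mapped reads with Bowtie, and estimated expected counts and FPKM per unigene with RSEM. The deposited expected counts and deposited FPKM were used as given. No genome was used, and names are those of the authors' BLAST and InterProScan annotation. The authors' own fold changes, p-values and calls in the combined table were not used.

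Expected counts were rounded for a two-sided Audic-Claverie test with Benjamini-Hochberg adjustment over all 60308 unigenes. A unigene was called at FDR of at most 0.001 and 2-fold. log2 ratios were taken from FPKM, with 0 set to 0.01. A library at 0 reads was set to 3 reads for a bound. Intervals are 95% Clopper-Pearson and, like the bounds, cover counting error only. Depth was 10305482 reads in CN and 10414545 in PA. Named unigenes were, in each of 14 role groups, the 2 with the most reads, the called members that rose and fell most (10 reads or more on both sides), and the member with at most 3 reads in 1 library and the most, at least 50, in the other, with the contigs of their clusters. Other unigenes named were chosen after their values were seen. Members and lists were chosen with earlier results of these data known. Alternatives used edgeR 4.0.16 in R 4.3.3 for TMM scaling and for exact tests with an assumed biological coefficient of variation, and summed clusters. The scripts ran in Python 3.11.15 and were tested on simulated data.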

Additional observations from a re-analysis of the deposited data

How the results depend on the processing

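No paired analysis was possible because each condition is 1 library, and for the same reason no replicate could be left out. TMM scaling lowered every log2 ratio by 0.25 and scaling by the median of ratios by 0.22, which moved the median of all unigenes to -0.03 and -0.01 and that of the members to 0.46 and 0.48. Under both, 40 members were called higher and 20 lower, and fibrillar collagens went from 11 to 6 called higher. Over all unigenes the calls went from 5096 higher and 4104 lower to 3828 and 5385 under TMM. The counts of members higher and lower, beside the share called over all unigenes, were 44 and 17 with at least 50 reads (35.4%), 48 and 20 with no filter (15.3%), 47 and 19 with 1 FPKM added (21.4%), 54 and 21 at FDR of at most 0.05 (35.0%), and 38 and 16 of 130 with clusters summed (18.7%). They were 29 and 14 at 4-fold (13.1%). In the exact test with an assumed coefficient of variation of 0.2 or 0.4, they were 28 and 14 (9.82%) or 5 and 2 (1.6%). That coefficient is a spread between replicate libraries, which 1 library per condition does not measure. The collagen XXIII match had a log2 ratio of 1.13 under TMM and 1.16 under the median of ratios. The median of the prolyl 4-hydroxylases, 0.07, lies within these shifts. With clusters summed, CL448.Contig4 and CL448.Contig6 both took the cluster's -1.68. Members that were not called also changed sign. Unigene5819 had -0.19 under TMM and -0.17 under the median of ratios, Unigene13229 had -0.018 and Unigene18844 had -0.014 under TMM, and CL2928.Contig2 had 0.50 with clusters summed. Of 178 values for single named unigenes, 161 kept their direction and call, 6 lost the call, 4 gained it and 7 changed sign. Depth limits the members with few reads, whose intervals span several log2 units.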
